A study of Mus musculus with 12 samples.

Results

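The 9 genes described here encode 4 Ras-family GTPases (Nras, Hras, Rras and Rras2) and 5 GTPase-activating proteins (GAPs: Nf1, Rasa1, Rasa2, Rasa3 and Rasal3). They were picked by name, and each Ensembl identifier was matched to its symbol. All 9 were found among the 45669 rows of the count table. The cells were CD4+ T cells of lymph nodes from C57BL6 mice aged 12 weeks, obtained by magnetic depletion of the other cells. Anaef mice were homozygous for the Anaef allele of Rasgrp1, a point mutation present throughout the animal, and wild-type (WT) mice carried the normal gene. Ribosome-protected fragments (RPF, or footprints) are the short pieces of mRNA covered by a ribosome and so spared by nuclease. They were sequenced from 2 Anaef pools (3B and 4B) and 2 WT pools (1B and 2B), after 1 minute of cycloheximide and digestion with micrococcal nuclease, and each pool joined 2 samples. Total RNA was sequenced from untreated cells in 4 Anaef libraries (replicates 5 to 8) and 4 WT libraries (replicates 1 to 4). The labels do not say which animals a pool holds, so the p-values below measure the spread between these samples, which may be partly technical.

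Ras proteins are molecular switches that are active when bound to GTP and inactive when bound to GDP. Exchange factors load them with GTP, and in T cells Rasgrp1 does so after the antigen receptor is engaged. GAPs switch Ras off by speeding up its slow hydrolysis of GTP, so the amount of active Ras depends on both sides, and in resting T cells GAPs hold it low. Nras and Hras are classical Ras proteins that signal to the ERK kinases. Rras and Rras2 are close relatives; Rras is known for its effects on integrin adhesion, and Rras2 binds resting antigen receptors in mouse lymphocytes. Nf1 encodes neurofibromin, and Rasa1 encodes a GAP with SH2 domains that bind phosphotyrosine. Rasa2 and Rasa3 belong to a family of GAPs that bind membrane lipids, and Rasa3 also acts on the Ras relative Rap. Rasal3 is a GAP found mostly in blood cells.

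Because the footprint data report on translation, the bases around each annotated start codon are shown first. They run from position -9 to position 4, counted from the A of the start codon, on the strand of the transcript. They were read from the GENCODE transcripts of build GRCm38, taking the main coding transcript of each gene. Capitals mark the start codon.
Nras: tggtgtgaaATGa
Hras: gtagaagctATGa
Rras: ggtggcgacATGa
Rras2: ggcgtcccgATGg
Nf1: cgggaggacATGg
Rasa1: ggcttcaacATGa
Rasa2: ggcggcaccATGg
Rasa3: acaagcagcATGg
Rasal3: ccagggaagATGa
A purine at position -3 is the best known feature of an efficient start site in vertebrates, and 8 of the 9 genes had it, Rras2 being the exception. Of 20351 protein-coding genes, 84.5% had that purine. A G at position 4 stood in Rras2, Nf1, Rasa2 and Rasa3, against 49.6% of all these genes. Nras, Hras, Rras, Rasa1 and Rasal3 had an A there. These matches describe the letters and nothing more.

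The genes lie on 7 chromosomes of GRCm38 (1-based). Nras is at chr3:103058285-103067914 on the plus strand. Hras (chr7:141189105-141194005, minus), Rras (chr7:45017961-45021647, plus) and Rras2 (chr7:114046782-114117781, minus) share a chromosome. Nf1 is at chr11:79339693-79581612 (plus) and Rasa1 at chr13:85214780-85289130 (minus). Rasa2 is at chr9:96539300-96631617, Rasa3 at chr8:13566948-13677603 and Rasal3 at chr17:32390659-32403583, each on the minus strand. The transcripts differ in make-up. The main Nras transcript had 567 coding bases and a 3′ untranslated region of 3730 bases, so 12.7% of it was coding. That share was 20% in Hras, 26.9% in Rras2 and 43.7% in Rasa2. It was higher in Rasa3 (56.8%), Rras (65.7%), Rasa1 (68.2%), Nf1 (71.5%) and Rasal3 (84.8%). In 8 of the 9 genes, no window of 30 coding bases recurred exactly in another annotated gene, and for Nras this covered 538 windows. Copies outside the annotation were not searched, and their part in the Nras footprint count was not tested. Rasal3 was the exception, with 445 of 3094 windows (14.4%) shared with the overlapping gene CT485616.1, which is read from the other strand. Those genes share 635 exonic bases, and since no source used here gives the strand setting of the counting, their reads cannot be told apart.

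Depth was 2868943 and 3464868 counts in the Anaef footprint pools and 4044330 and 7009342 in the WT pools. In total RNA it was 18580747 to 39467754 counts in Anaef and 15326842 to 40046317 in WT. The labelled cell type was checked against 12 CD4 T cell markers, which were all detected and summed to 3797.7 to 5513.1 CPM (counts scaled to equal library totals) in Anaef total RNA and 3467.9 to 3769.1 CPM in WT total RNA. Markers of some other cells were lower or leaned lower in Anaef than in WT total RNA, and those of others overlapped. The stromal and endothelial genes summed to 152.5 to 221.8 CPM in Anaef and 152.1 to 164.3 CPM in WT. The CD8 T cell genes summed to 5.3 to 15.3 CPM in Anaef and 7.0 to 12.3 CPM in WT. The B cell sums below also overlapped slightly. The 5 plasma cell genes summed to 364.9 to 752.6 CPM in Anaef and 1279.1 to 6012.6 CPM in WT, the 10 B cell genes to 11.7 to 35.0 CPM in Anaef and 33.9 to 67.5 CPM in WT, and the 9 myeloid and dendritic genes to 16.6 to 22.0 CPM in Anaef and 27.5 to 32.5 CPM in WT. In footprints the plasma cell genes summed to 2940.9 and 8834.0 CPM in the Anaef pools and 13111.3 and 33413.8 CPM in the WT pools. The B cell genes summed there to 22.4 and 40.1 CPM in Anaef and 50.7 and 92.3 CPM in WT. The myeloid and dendritic sums overlapped in footprints, at 20.9 and 38.0 CPM in Anaef and 33.3 and 48.7 CPM in WT. The part of those cells in the differences below was not tested. In these bulk samples, fewer cells that express a gene and less RNA per cell cannot be told apart. Rasgrp1 itself was at 114 ± 13.6 CPM of footprints in Anaef and 161 ± 16.4 CPM in WT (SD, n = 2 pools each; log2 fold change -0.50, edgeR adjusted p = 0.363). In total RNA it leaned the other way, at 582 ± 92.9 CPM in Anaef and 503 ± 72.1 CPM in WT (SD, n = 4 each; log2 fold change 0.21, adjusted p = 0.945), and neither passed. Its RNA level does not check the labels, since the allele is a point mutation.

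Among the GTPases, Nras dominated total RNA and did not differ detectably between genotypes. CPM were taken on the library size scaled by the trimmed mean of M-values (TMM). Nras RNA was at 210, 283, 297 and 242 CPM in Anaef replicates 5 to 8 and at 237, 266, 208 and 263 CPM in WT replicates 1 to 4. The 2 sets of values overlapped over most of their range. Rras2 RNA was at 12.1, 7.20, 7.54 and 3.56 CPM in Anaef and at 9.22, 7.03, 10.4 and 9.82 CPM in WT. Anaef held both its highest and its lowest library. Rras RNA averaged 5.19 ± 1.44 CPM in Anaef and 5.57 ± 2.53 CPM in WT (SD, n = 4 each). Hras RNA averaged 3.76 ± 1.45 CPM in Anaef and 5.13 ± 2.06 CPM in WT. It was also the scarcest of the GTPases per kilobase of exon, with 52 to 158 counts per library in Anaef and 40 to 262 in WT.

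Of the GAPs, Rasal3 had the most RNA. It was at 552, 526.5, 485 and 468 CPM in Anaef and at 453, 410.3, 451 and 451 CPM in WT. Every Anaef library lay above every WT library. WT replicate 2 stood apart from the other 3 WT libraries, which lay within 3 CPM of each other. Rasa2 RNA showed the opposite order, at 71.6, 76.4, 76.2 and 51.6 CPM in Anaef and 83.0, 87.9, 81.3 and 83.2 CPM in WT. The lowest WT library was above the highest Anaef library. Rasa3 RNA was at 112, 108, 132 and 117 CPM in Anaef and at 119, 103, 142 and 142 CPM in WT, which overlapped. Rasa1 RNA averaged 44.9 ± 5.65 CPM in Anaef and 46.6 ± 4.44 CPM in WT, and Nf1 RNA 15.2 ± 2.70 CPM in Anaef and 19.2 ± 3.55 CPM in WT (SD, n = 4 each).

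In footprints, Nras no longer led the GTPases. This gene, the RNA of which was the most abundant of the 4, gave 10 and 13 footprint reads in Anaef pools 3B and 4B and 9 and 6 reads in WT pools 1B and 2B. This came to 2.87 and 4.54 CPM in Anaef and 1.33 and 1.46 CPM in WT. The summed counts of 23 in Anaef and 15 in WT had exact Poisson intervals at 95% of 14.6 to 34.5 in Anaef and 8.40 to 24.7 in WT, which cover counting error only. Rras2 led the GTPases in footprints, also per coding length, at 18.4 and 16.4 CPM in Anaef and 17.7 and 24.8 CPM in WT. The Anaef pools lay within or just below the WT range. Rras gave 16 and 3 reads in Anaef and 26 and 16 in WT, so its Anaef pools differed from each other more than the genotypes did. Hras gave 2 and 5 reads in Anaef and 9 and 5 in WT, and a difference was not detectable at this depth.

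Rasa3 and Rasal3 gave the most footprint reads of the 9 genes. Rasa3 was at 474 and 525.5 CPM in Anaef (1653 and 1506 reads) and at 541 and 532 CPM in WT (3662 and 2191 reads). Rasal3 was at 511 and 487 CPM in Anaef and 443 and 485 CPM in WT. Each pool held at least 1396 reads of either gene. Rasa1 was at 90.3 and 79.6 CPM in Anaef and 80.3 and 70.2 CPM in WT, with overlap between genotypes. Rasa2 was at 34.4 and 26.9 CPM in Anaef and 34.4 and 43.7 CPM in WT. The higher Anaef pool and the lower WT pool were at the same level to 3 digits. Nf1 averaged 22.4 ± 3.58 CPM in Anaef and 20.2 ± 0.984 CPM in WT (SD, n = 2 each), and its pools overlapped.

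To compare genes with one another, CPM were divided by length in kilobases (kb), with the coding length for footprints and the exonic length for total RNA. In footprints per kb of coding sequence, Rasa3 led with 195 in Anaef and 209 in WT, followed by Rasal3 with 156 in Anaef and 145 in WT. Rras2 (28.0 in Anaef, 34.2 in WT) and Rasa1 (27.1 in Anaef, 24.0 in WT) came next and overlapped each other in Anaef. Rasa2 was at 12.1 in Anaef and 15.4 in WT, clear of its neighbours in both genotypes. At the low end, Nras, Rras, Nf1 and Hras overlapped with their neighbours in Anaef, with means of 6.23, 4.31, 2.62 and 1.66. In WT, Rras (5.91) was clear of the 3 below it, and Nf1 (2.36) and Nras (2.34) overlapped. In total RNA per kb of exon, the order was Rasal3 (104 in Anaef, 90.1 in WT), Nras (48.4 in Anaef, 45.7 in WT) and Rasa3 (23.0 in Anaef, 24.9 in WT), with no overlap between neighbours. Rasa1 came next at 6.13 in Anaef and 6.37 in WT. The others lay between 0.957 and 4.63 in Anaef and between 1.21 and 5.29 in WT, and each overlapped the next. Dividing total RNA by coding length instead put Nras first, at 434.5 in Anaef and 410 in WT, ahead of Rasal3 at 159 in Anaef and 138 in WT.

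**Figure D1:**
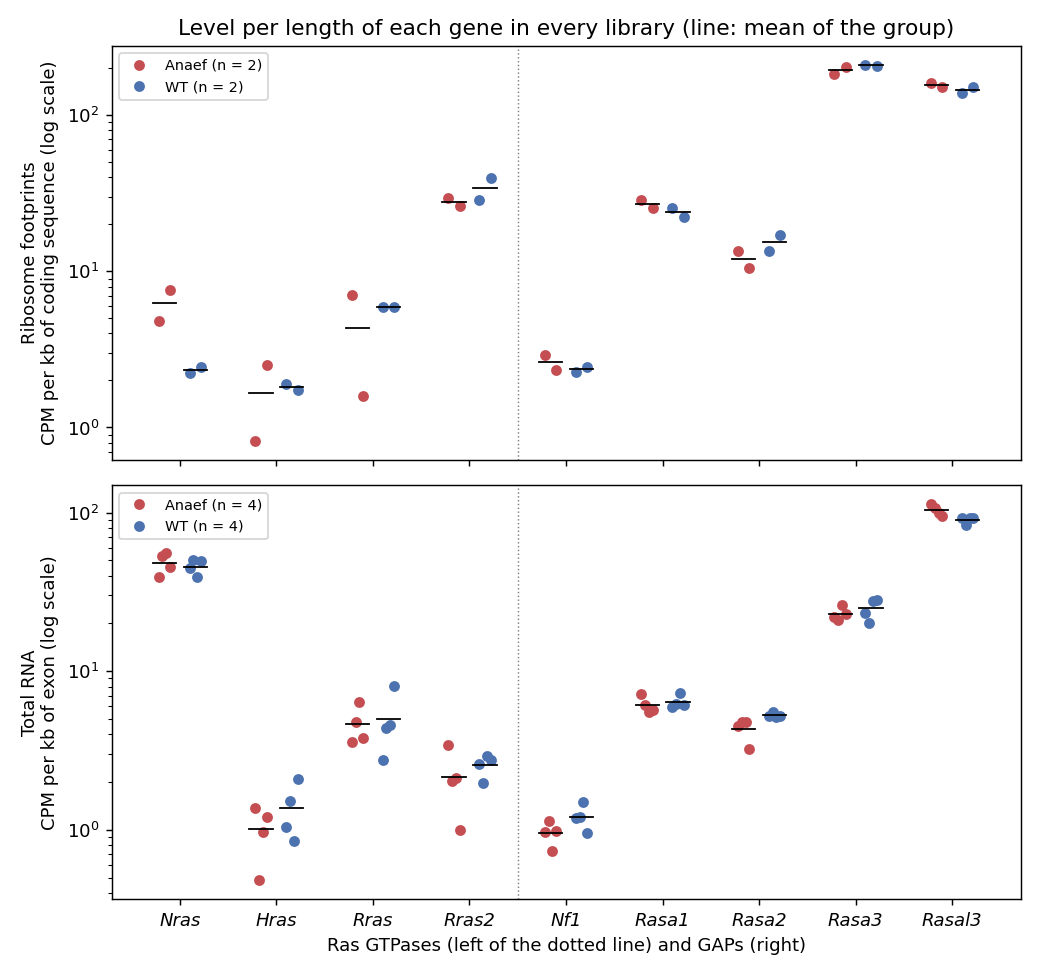
Level of the 9 genes in every library, with footprints (CPM per kb of coding sequence) above total RNA (CPM per kb of exon), both on a log axis. Points are libraries, Anaef in red left of WT in blue, and bars are group means. Nras sits near 50 CPM per kb in total RNA but below 8 CPM per kb in footprints, whereas Rasa3 leads the footprints.

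Summed over each family, the GAPs outweighed the GTPases in every footprint pool, whereas in total RNA the order depended on the length used. The GAP sum in footprints per kb was 9.24 and 10.4 times the GTPase sum in Anaef and 10.1 and 8.03 times in WT. In total RNA per kb of exon the ratio ran from 2.09 to 3.09 in Anaef and from 2.02 to 2.82 in WT. Per kb of coding sequence it turned round, and the GAP RNA sum was 0.469 to 0.681 of the GTPase sum in Anaef and 0.463 to 0.653 in WT. The ratio overlapped between genotypes on each of these scales. Nras made up 11.4% and 20.02% of GTPase footprints per kb in Anaef and 5.81% and 4.90% in WT, but 82.5% to 88.4% of GTPase RNA per kb of exon in Anaef and 79.2% to 87.4% in WT. The footprint shares rest on 10 and 13 Nras reads in the Anaef pools and 9 and 6 in the WT pools. The genotype difference in Nras footprints was not called (below). Rasal3 took 41.0% and 38.5% of GAP footprints per kb in Anaef and 35.5% and 37.8% in WT. Its share of GAP RNA per kb of exon was 72.8% to 76.4% in Anaef and 68.8% to 72.2% in WT.

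The first question was whether the Anaef allele, which alters an activator of Ras, goes along with different amounts of Ras or of its GAPs. No member passed the test in total RNA. Here and below, genes were tested with the quasi-likelihood F test of edgeR across all genes, p was adjusted by Benjamini-Hochberg, and a gene is called when its adjusted p is under 0.05. In total RNA, 0 of 9 members were called, against 4 of 17876 genes tested (0.0224%), and 0 members had an unadjusted p under 0.05. The adjusted p of the members ran from 0.915 to 0.989, and DESeq2 and limma-voom also called 0 of the 9. The log2 fold change of Anaef over WT was 0.20 for Rasal3 (standard error (SE) 0.12, 95% interval -0.06 to 0.47, adjusted p = 0.916). For Rasa2 it was -0.28 (SE 0.16, interval -0.63 to 0.07, adjusted p = 0.915). Rasal3 and Rasa2 were the 2 members whose libraries did not overlap between genotypes, and 3.59% of all genes tested showed no overlap. Nras was at 0.08 (interval -0.25 to 0.42), Rasa3 at -0.11 (interval -0.44 to 0.22) and Rasa1 at -0.05 (interval -0.40 to 0.29). Intervals were wider for Nf1 (-0.34, interval -0.84 to 0.16), Rras2 (-0.26, -1.06 to 0.53), Rras (-0.10, -0.94 to 0.74) and Hras (-0.45, -1.39 to 0.48). The median log2 fold change of the members was -0.11, against 0.01 over all genes tested.

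No member passed in footprints either. With 2 pools a genotype, 0 of 8 members were called, against 0 of 9710 genes (0%); 1151 genes had an unadjusted p under 0.05, and DESeq2 called 207 genes and limma-voom 0, with no member among them. Hras was not tested because neither genotype reached the filter of 2.66 CPM. Nras had the lowest p of the members, with a log2 fold change of 1.38 (SE 0.50, 95% interval 0.20 to 2.57, unadjusted p = 0.0286, adjusted p = 0.383). It passed the filter through the 2 Anaef pools and through no WT pool, so the filter partly set its direction, and this p supports no difference. The unadjusted p was 0.0633 with no filter and 0.0906 with DESeq2. It stayed under 0.05 with limma-voom (0.0438), RLE size factors (0.0289), nuclear protein-coding genes alone (0.0288) and a fit on all 12 libraries (0.00337). The limma-voom, RLE and protein-coding runs kept the same kind of filter, so they carry the same limit. All of these runs rest on the same few Nras reads and are not separate support. The lowest adjusted p of any alternative was 0.323. Nras was not tested under the filter of a mean of at least 50 counts. Leaving out any 1 pool gave Nras log2 fold changes from 1.03 to 1.69. Such a run leaves 1 pool in a genotype, so it gives a size only and does not show that the p holds. The others had log2 fold changes of -0.40 for Rras (interval -1.87 to 1.08), -0.27 for Rras2 (-0.88 to 0.33), 0.16 for Nf1 (-0.36 to 0.68), 0.17 for Rasa1 (-0.23 to 0.57), -0.34 for Rasa2 (-0.86 to 0.18), -0.10 for Rasa3 (-0.41 to 0.20) and 0.11 for Rasal3 (-0.20 to 0.41). The sign for Rras rested on pool 4B, since without it the value was 0.24, and the sign for Nf1 rested on pool 3B, without which it was -0.02. Pools did not overlap between genotypes for Nras, Rasa3 and Rasal3, which is 3 of the 8 tested, and 44.8% of all genes tested also showed no overlap.

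**Figure D2:**
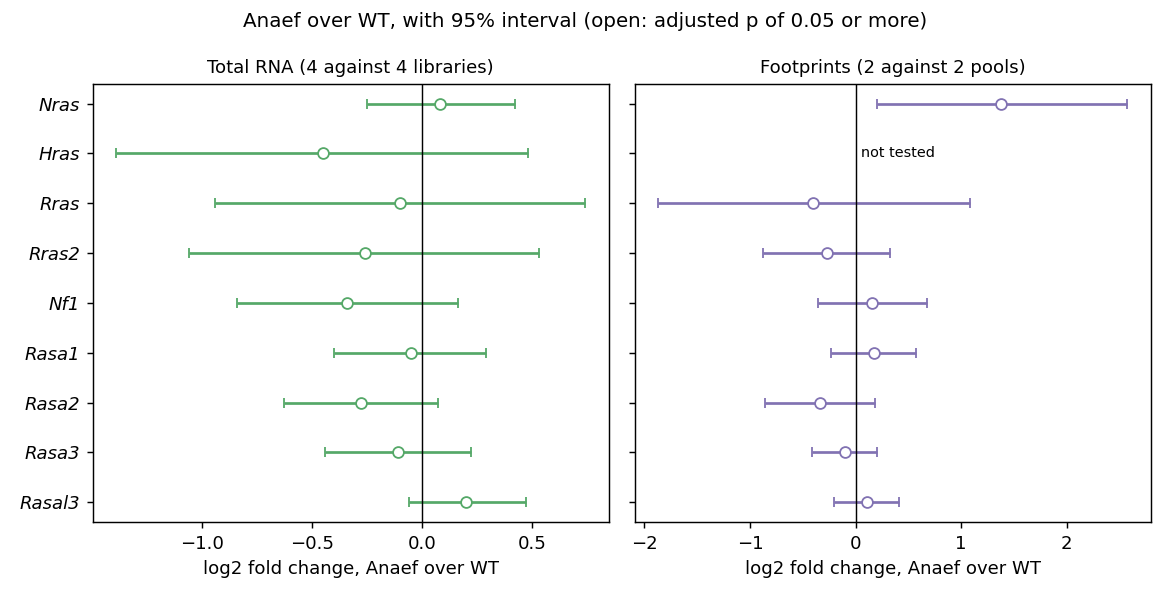
Log2 fold change of Anaef over WT for each gene in total RNA (left) and in footprints (right), with 95% intervals. Open circles mark an adjusted p of 0.05 or more, which holds for every value. Hras was not tested in footprints, and Nras was tested there through its Anaef pools, since neither WT pool reached the filter.

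Footprints relative to RNA were compared between genotypes in 1 model of the 12 libraries, as an interaction term for genotype with assay. Again 0 of 9 members were called, against 0 of 19031 genes (0%), with 636 genes at an unadjusted p under 0.05 and 10 genes called by DESeq2 and 0 by limma-voom. Nras was the 1 member with an unadjusted p under 0.05. Its log2 interaction was 1.30 (SE 0.38, 95% interval 0.47 to 2.13, unadjusted p = 0.00618, adjusted p = 1), and it rested on the 23 Anaef and 15 WT footprint reads above. The unadjusted p was 0.17 with limma-voom. It was 0.0141 with DESeq2, 0.00492 with RLE size factors, 0.00709 with no filter and 0.00707 with nuclear protein-coding genes alone. Over 18 alternatives the interaction ran from 0.93, without pool 4B, to 1.6, and the lowest adjusted p was 0.606. The interaction was 0.48 for Nf1 (SE 0.38), 0.22 for Rasa1 (SE 0.26) and 0.26 for Hras (SE 0.88). It was -0.33 for Rras (SE 0.78), -0.11 for Rasal3 (SE 0.18) and -0.07 for Rasa2 (SE 0.29). Rras2 (-0.03, SE 0.57) and Rasa3 (-0.00, SE 0.23) were nearest to 0, and their signs turned with the scaling. Each of these had an adjusted p of 1.

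Within a genotype, the genes were set against each other by how many footprints they had for their RNA. Rasa3 was higher in footprints, and Nras, Hras, Rasa2 and Rasal3 were lower, in both genotypes. The fold changes below scale the libraries of both assays together, so they are relative to the other genes of the same libraries and differ from a ratio of the CPM above. In Anaef, 5 of 9 members were called, against 67.1% of 18032 genes. Of these, 1 was higher in footprints (16.4% of genes) and 4 were lower (50.8% of genes). In WT, 7 of 9 members were called, against 74% of 17775 genes, with 1 higher (19.6% of genes) and 6 lower (54.4% of genes). Calls were thus about as common among the members as among all genes. The median log2 fold change of the members was -0.78 in Anaef and -0.65 in WT. Over all genes tested it was -1.79 in Anaef and -1.62 in WT, and over nuclear protein-coding genes -0.47 in Anaef and -0.37 in WT.

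The size of the difference set Nras apart from the other members. Its log2 fold change of footprints over total RNA was -6.89 in Anaef (SE 0.33, 95% interval -7.66 to -6.13, adjusted p = 3.87e-06), or 119-fold lower. In WT it was -8.17 (SE 0.26, interval -8.77 to -7.57, adjusted p = 2.74e-06), or 287-fold lower. Of all genes tested in these fits, 30.2% in Anaef and 23% in WT had a value at or below that of Nras. That set is not limited to nuclear protein-coding genes, and the place of Nras among abundant ones is given below. Hras was lower by a log2 fold change of -2.47 in Anaef (SE 0.75, adjusted p = 0.0192) and -2.71 in WT (SE 0.53, adjusted p = 0.0023). The Hras call in Anaef was lost without pool 3B (-1.86, adjusted p = 0.146) and with limma-voom (-2.39, adjusted p = 0.133). Rras was at -1.60 in Anaef (adjusted p = 0.0563) and -1.24 in WT (adjusted p = 0.0496). In WT it was called in 2 of 12 alternatives, with adjusted p from 0.0229 to 0.182, and leaving out replicate 2, 3 or 4 or either pool ended the call (-1.31, -1.26 and -0.92, then -1.23 without 1B and -1.25 without 2B). In Anaef, without pool 3B, it stood at -3.06 (adjusted p = 0.0244), and without pool 4B at -0.92. Rras2, alone among the GTPases, leaned toward footprints, at 0.44 in Anaef (SE 0.49, adjusted p = 0.437) and 0.50 in WT (interval -0.12 to 1.12, adjusted p = 0.125), and neither passed.

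Among the GAPs, Rasa3 was higher in footprints by a log2 fold change of 1.34 in Anaef (SE 0.16, adjusted p = 0.00019), or 2.53-fold, and of 1.36 in WT (SE 0.17, interval 0.96 to 1.77, adjusted p = 0.000237), or 2.57-fold. Rasa2 was lower, at -1.92 in Anaef (SE 0.27, adjusted p = 0.000381) and -1.82 in WT (SE 0.18, adjusted p = 6.64e-05). These 2 GAPs come from the same subfamily and had values of opposite sign on this scale. Of all genes tested, 85.3% in Anaef and 85.7% in WT had a value at or below that of Rasa3. For Rasa2 that share was 49% in Anaef and 48.5% in WT, so its value was near the middle of all genes tested. That set is not limited to nuclear protein-coding genes, whose median was -0.47 in Anaef and -0.37 in WT. Rasa2 lay well below that median. Rasal3 was lower by less, at -0.78 in Anaef (SE 0.17, adjusted p = 0.00364) and -0.65 in WT (SE 0.14, adjusted p = 0.00348). Of all genes tested, 59.7% in Anaef and 59.6% in WT stood at or below Rasal3. Against the median of nuclear protein-coding genes, Rasal3 was also lower. Its reads may include some of the overlapping gene. Nf1 was at -0.18 in Anaef (SE 0.32, adjusted p = 0.624) and -0.64 in WT (SE 0.25, adjusted p = 0.0468). The WT call held in 2 of 12 alternatives, with adjusted p from 0.0294 to 0.202, and ended without replicate 1 (-0.65), replicate 2 (-0.67), pool 1B (-0.60) or pool 2B (-0.70). Rasa1 was close to 0, at 0.17 in Anaef (SE 0.21, adjusted p = 0.488) and -0.02 in WT (SE 0.18, adjusted p = 0.907). Nras, Rasa2, Rasa3 and Rasal3 kept their calls in 12 of 12 alternatives in each genotype.

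**Figure D3:**
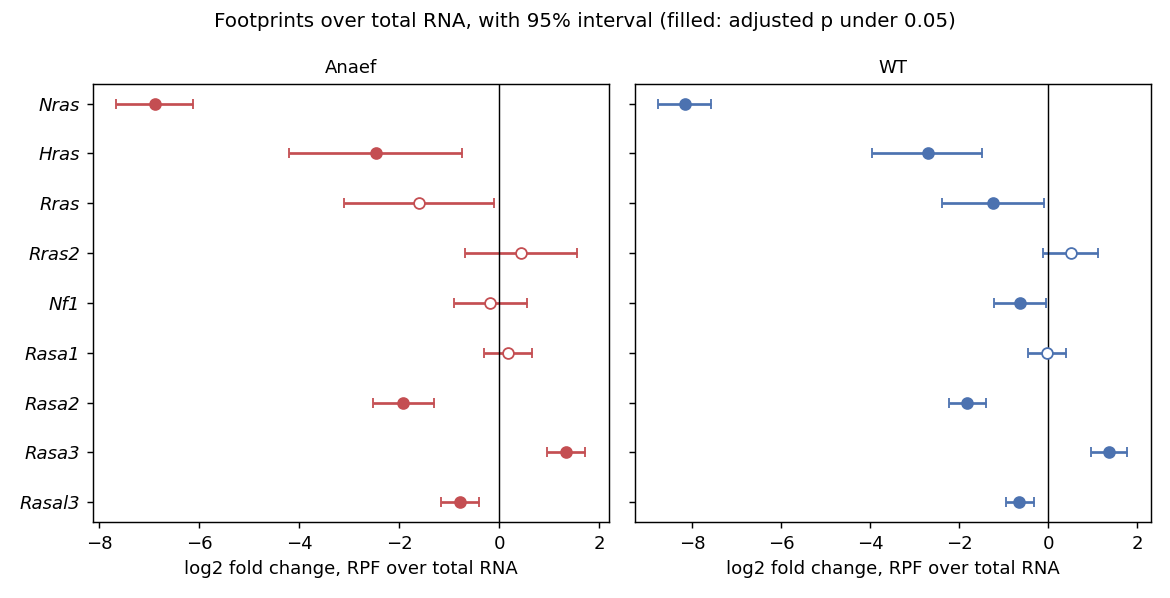
Log2 fold change of footprints (RPF) over total RNA for each gene in Anaef (left) and WT (right), with 95% intervals. Filled circles are called and open circles are not. Nras lies at -6.89 in Anaef and -8.17 in WT, far left of the other 8 genes, and Rasa3 is the 1 gene called to the right of 0.

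The place of Nras among all abundant genes was read from the ratio of mean footprint CPM to mean total RNA CPM. Among nuclear genes that code for protein and reached 10 CPM of total RNA, the median ratio was 1.12 in Anaef (6442 genes) and 1.2 in WT (6462 genes). Nras had a ratio of 0.0143 in Anaef, with 185 genes below it, and 0.00572 in WT, with 140 genes below it. With RNA taken per exonic length and footprints per coding length, its ratio was 0.129 in Anaef and 0.0513 in WT, against medians of 3.42 in Anaef and 3.75 in WT. By that measure 268 genes were below it in Anaef and 195 in WT. The deposited footprint columns are marked as masked, the sources used here do not say what was masked, and the part of that step in the Nras value was not tested. Rasa3 had a ratio of 4.26 in Anaef and 4.23 in WT, above 5637 of these genes in Anaef and 5651 in WT. Rasa1 (1.89 in Anaef, 1.61 in WT), Nf1 (1.48 in Anaef, 1.05 in WT) and Rasal3 (0.983 in Anaef, 1.05 in WT) lay closer to the median. Rasa2 lay below it, at 0.445 in Anaef and 0.466 in WT. Per length, Rasa2 was nearer to the median than Rasal3, with ratios of 2.77 in Anaef and 2.91 in WT for Rasa2 and of 1.51 in Anaef and 1.61 in WT for Rasal3. Hras, Rras and Rras2 had too little RNA to be counted in this set. Their ratios were 0.308, 0.543 and 2.28 in Anaef and 0.248, 0.694 and 2.33 in WT.

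**Figure D4:**
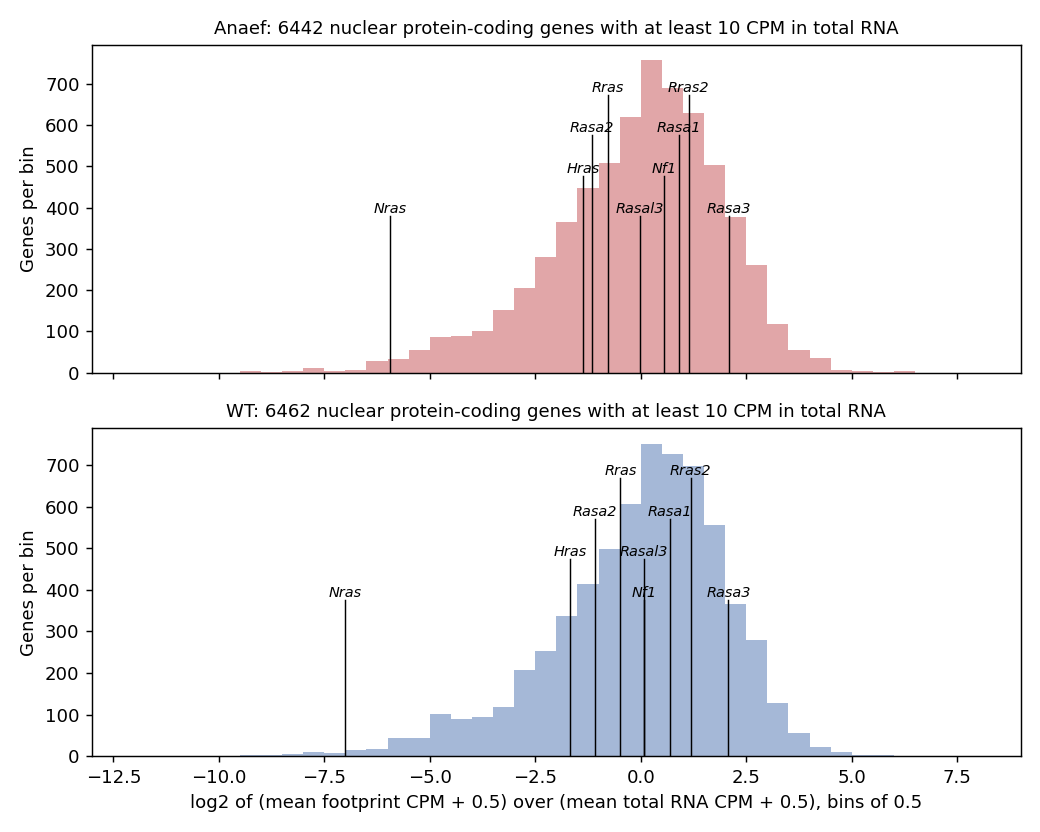
Distribution of the log2 ratio of footprint CPM over total RNA CPM, with 0.5 CPM added to each, over nuclear protein-coding genes that reached 10 CPM of total RNA, in Anaef (above) and WT (below). Vertical lines mark the 9 genes, of which Hras, Rras and Rras2 lie outside the set. Nras falls in the thin left tail and the other 8 genes fall within the body of the distribution.

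Genes that work around Ras were then examined in 6 lists of other GTPases, other GAPs, exchange factors, GAP partners, lipid-processing and traffic factors, and effectors. No gene of any list was called between genotypes in total RNA, in footprints or in their interaction. In total RNA, unadjusted p was under 0.05 for 1 of 14 other Ras-subfamily GTPases tested, 1 of 7 other GAPs, 2 of 8 exchange factors, 1 of 7 GAP partners, 0 of 16 lipid and traffic factors and 1 of 16 effectors. Over all genes tested that share was 5.62%. The list medians of log2 fold change ran from -0.09 for the other GAPs to 0.43 for the GAP partners, against 0.01 over all genes tested. Arhgap35, a partner of Rasa1, had the lowest p, at 54.4 ± 9.10 CPM in Anaef and 28.8 ± 3.16 CPM in WT (SD, n = 4 each; log2 fold change 0.92, SE 0.17, edgeR adjusted p = 0.289). Among exchange factors, Sos1 was at 0.51 (adjusted p = 0.84) and Rasgrp3, which B cells also express, at -1.98 (0.7). Rasgrf1 had an adjusted p of 0.912, and its difference rested on Anaef replicate 6, at 8.92 CPM, since the other Anaef libraries were at 0.143 to 0.423 CPM and the WT libraries at 0.293 to 1.03 CPM. Of the GTPases, Nkiras2 was at -0.85 (adjusted p = 0.871), Ralb at 0.74 (0.934) and Rhebl1 at -1.09 (0.94). The GAP Rasal1 was at -1.21 (adjusted p = 0.869), and Rasal2 (-0.27) and Iqgap2 (0.06) were nearer to 0. Spred2, a partner of Nf1, was at 0.32 (adjusted p = 0.897) and Spred1 at 0.61 (0.916). The thioesterase gene Abhd17c (0.54), the methyltransferase gene Icmt (-0.51) and the Ras carrier gene Pde6d (0.60) had adjusted p from 0.911 to 0.934. Rassf1 (-0.74), Pik3cd (0.37) and Pik3cg (0.37), which bind active Ras, had adjusted p from 0.84 to 0.925.

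Footprints over total RNA differed widely among these genes. Over all genes tested, 50.8% were called lower and 16.4% higher in Anaef, and 54.4% lower and 19.6% higher in WT, and the counts below are to be read against these shares. In WT, 7 of 8 exchange factors were lower in footprints and 1 was higher, with a median log2 fold change of -2.33 against -1.62 over all genes. With Rasgrf1, which had no WT footprint, placed at a bound of 3 counts, the median was -1.86. In Anaef, 6 of the 8 were lower and 0 higher. Rasgrp1 was at -3.10 in Anaef and -2.36 in WT (edgeR adjusted p = 1.9e-05 in Anaef and 3.02e-05 in WT). In WT, Rasgrp2 was at -3.20 and Rasgrp4 at -2.42. Of 14 other GTPases, 10 were lower and 1 higher in WT (median -1.64), and 7 were lower and 1 higher in Anaef. Those with the lowest p in WT were Nkiras1 (-5.32), Rap2c (-2.32) and Rap1a (-2.59), and each was smaller in size than Nras. Of 7 other GAPs, 2 were lower and 2 higher in each genotype (median -0.46 in Anaef and -0.74 in WT). Iqgap1, a scaffold with a GAP-related domain, was higher like Rasa3, at 1.32 in Anaef and 1.28 in WT. In WT, Iqgap3 was at -2.51, and Rasal2 had 0 footprint counts, which allows up to 3 over the 2 pools.

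Among the remaining lists, GAP partners and lipid factors had about as many genes higher as lower. Of 8 GAP partners, 4 were lower and 3 higher in WT, and 3 lower and 3 higher in Anaef. G3bp1, first described as a protein that binds Rasa1, was at 2.36 in Anaef and 2.79 in WT. The adaptor gene Dok1 was at 3.61 in WT and Spred2 at -2.61. Of 16 lipid and traffic factors, 5 were lower and 5 higher in WT (median 0.09), and 6 lower and 4 higher in Anaef. Those with the lowest p in WT were the palmitoyltransferase pair Golga7 (-2.14) and Zdhhc9 (-1.69), and Icmt (-3.46). Of 15 effectors, 7 were lower and 3 higher in WT (median -0.92), and 8 lower and 4 higher in Anaef. In WT, the kinase gene Araf was at -2.00, Rassf2 at -1.77 and Rin3 at 1.38.

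For each member, the gene with the most similar profile was found among 12539 nuclear protein-coding genes. Similarity was the root mean square difference of log2 CPM over the 12 libraries, each gene centred on its own mean, so assay and depth are shared by all points. Nras was most like Cnot2, a subunit of an mRNA deadenylase complex, with a difference of 0.32, against a median of 3.26 over all candidates. Cnot2 had 0.636 CPM of footprints in Anaef and 0.343 CPM in WT, and 82.9 CPM of RNA in Anaef and 64.5 CPM in WT. Its footprints rested on 4 reads in each genotype. Rasa3 was most like Tagap, with a difference of 0.12. Tagap had 185 CPM of footprints in Anaef and 184 CPM in WT, and 38.6 CPM of RNA in Anaef and 44.3 CPM in WT. The closest genes to the others were Insig1 for Hras (0.30), Ptp4a3 for Rras (0.31), Rnf19b for Rras2 (0.23), Dtymk for Nf1 (0.14), Trim21 for Rasa1 (0.12) and Ncbp2 for Rasal3 (0.10). Rasa2 was nearest to Nat8f7 (0.17), a gene with 0 footprint counts, 53 RNA counts in Anaef and 73 in WT, so this likeness rests on very few reads.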

How the data were processed

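The authors deposited raw counts per gene, with footprint columns marked as masked; per the submitters' processing notes, TopHat 1.4.1 and build GRCm38 were used. For the counting tool, annotation, strand setting and mask: not given in the sources used here. Of the rows, 44595 matched GENCODE genes of GRCm38 and 263 joined several identifiers. Every count column was matched to a sample.

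The test was that of edgeR 4.0.16, run under R 4.3.3 (TMM, filterByExpr, quasi-likelihood F test, Benjamini-Hochberg over all genes tested, threshold 0.05). The procedure was tested on simulated data. That simulation gave all genes the same spread and did not look separately at genes with few footprint reads, such as Nras, Hras and Rras. Total RNA, footprints and each genotype's pair of assays were fitted separately, and the interaction over 12 libraries. Alternatives were DESeq2 1.42.0, limma-voom (limma 3.58.1), RLE size factors, no count filter, a mean of at least 50 counts, nuclear protein-coding genes alone, a fit on all 12 libraries for the genotype comparisons, leaving out each library, and coding length for RNA levels. Log2 ratios in the plotted distribution used a pseudocount of 0.5 CPM.

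The members and lists were chosen with earlier results of these data known. From each list, up to 3 genes with the lowest p in total RNA and in the WT assay comparison were named.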

Additional observations from a re-analysis of the deposited data

Results flagged for a closer look

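Rasal3 in total RNA was at 410 CPM in WT replicate 2, apart from the other 3 WT libraries. Its gap to the nearest of them was 0.943 of the range of the group, above the critical value for 4 samples. Chance alone flags about 1 in 20 groups, and 18 groups of 4 libraries were examined.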

How the results depend on the processing

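Between genotypes, 0 members were called in any alternative run. The count of genes called in total RNA (4) was 120 with DESeq2, 2 with limma-voom and 0 with nuclear protein-coding genes, and 0 to 3 without 1 library (0 without Anaef replicate 5, 7 or 8, 1 without WT replicate 2). In footprints (0) it was 207 with DESeq2, 514 with no count filter and 6 with nuclear protein-coding genes. It was 0 to 211 without 1 pool, the highest being without Anaef pool 3B and the next, 14, without 4B. The interaction (0) gave 10 genes with DESeq2 and 0 to 1 without 1 library, the 1 being without WT replicate 1. For footprints over RNA, nuclear protein-coding genes gave 6717 in Anaef and 7740 in WT (fewer genes tested), and limma-voom gave 7909 in Anaef. The members called were 4 to 6 in Anaef and 5 to 6 in WT. RLE size factors moved the median of all genes by 0.11 in Anaef and 0.07 in WT. Of the members' fold changes, 31 turned sign, none of them called, the largest at 0.72 in size. In total RNA, Rras was 0.06 with limma-voom. In the interaction, Rras2 was 0.01 with DESeq2, 0.01 with RLE and 0.13 with limma-voom, and Rasa3 was 0.04, 0.04 and, with a mean of at least 50 counts, 0.03. In the WT assay comparison, Rasa1 was 0.04 with DESeq2, RLE or nuclear protein-coding genes, 0.02 with a mean of at least 50 counts and 0.01 with limma-voom. Without 1 library, total RNA values ranged from -0.14 to 0.01 for Rasa1 and -0.30 to 0.25 for Rras, and footprint values from -0.02 to 0.30 for Nf1 and -1.86 to 0.24 for Rras. Interactions ranged from -0.72 to 0.87 for Hras, -0.28 to 0.09 for Rasa2, -0.10 to 0.09 for Rasa3, -1.80 to 0.31 for Rras and -0.28 to 0.28 for Rras2, and the WT assay value of Rasa1 from -0.13 to 0.06. The cause was not tested. No paired analysis was possible because the groups share no replicate numbers. Footprint depth limits Nras, Hras and Rras most.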
